A study of Mus musculus with 2 samples.

Results

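The hypoxia-type neutrophils described here were 212 barcodes of 1 droplet library, out of 1062 neutrophils and 4830 barcodes in that library and 14421 barcodes in both libraries of the study. They were chosen by measured values: a barcode counted as a neutrophil where at least 10% of its gene UMIs (unique molecular identifiers, each standing for 1 captured transcript) came from S100a8 and S100a9, and as a member where its fraction of gene UMIs from Bnip3, Hilpda, Mif and Slc2a1 was among the highest 20%. The cells came from BALB/cAnNCrl mice bearing liver metastases of 4T1, a mouse mammary carcinoma line, 5 days after hepatic arterial infusion of the vehicle or of CBL0137, a curaxin that binds DNA and traps the chromatin factor FACT. Each group was 1 pool of 2 mice without replicates, so no test was possible, and every interval below is an exact 95% interval that covers counting error only. Per the study's methods the mice were females of 7 to 8 weeks when purchased, and what amounts the low and the high dose were is not stated there or in the labels.

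Pools were told apart by hashtags, antibodies to surface proteins of all leukocytes that carry a short DNA barcode. The 3 oligonucleotides are shown because they alone define the groups compared, and a barcode was placed in a group where 1 hashtag had at least 10 UMIs and at least 3 times the next.
A0301, vehicle: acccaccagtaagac
A0305, low dose of CBL0137: ctttgtctttgtgag
A0310, high dose of CBL0137: ccgattgtaacagac
The study's methods say that cells were stained with the vehicle or the high-dose antibody, and give the low-dose oligonucleotide only in the list of barcode sequences used. By this rule 347 barcodes of the library, 59 neutrophils among them, had no group and were left out.

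Cells sense low oxygen through the hypoxia-inducible factors (HIF), whose alpha subunits are hydroxylated by the oxygen-dependent EGLN enzymes, bound by VHL and degraded, and are stable when oxygen falls. Stable HIF pairs with ARNT, binds DNA at a short core motif and switches on genes for glucose uptake, glycolysis, mitophagy, lipid storage and blood vessel growth. Neutrophils have few mitochondria and depend on glycolysis, and HIF-1 is known to prolong their survival in low oxygen.

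The tissue label and the data of this library went against each other. The library is labelled spleen, its file name says Liver, and it is called the Liver file here, while the other library, labelled liver, is called the Spleen file. Clec4f, a marker of the Kupffer cells of the liver, stood at 133 CPM (counts scaled to 1000000 UMIs) in the Liver file and at 0 in the Spleen file, where a count of 0 allows up to 0.0414 CPM. Alb, the albumin gene of hepatocytes, stood at 30.8 CPM in the Liver file and had 0 UMIs in the Spleen file. Ighd, a marker of follicular B cells, stood at 23.1 and 80.1 CPM. The sources differ on the cells loaded: the labels speak of leukocytes from a density gradient, the sequencing methods of CD11b+ cells isolated with beads, and the study's account of these data of both leukocytes and CD11b+ cells. The 2 libraries shared 15 barcode sequences, 0 of them among the hypoxia-type neutrophils.

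Members were shallower than the other 850 neutrophils of the library. Their median depth was 3233.5 UMIs against 8483.5, with 3099 against 9581.5 in the vehicle group, 3062 against 5982 at the low dose and 10055 against 13723 at the high dose. Summed over members, the data held 331990 UMIs for the vehicle, 522571 for the low dose and 278467 for the high dose. S100a8 and S100a9, the calprotectin subunits that defined the neutrophils, made up a median of 19.6% of the UMIs of a member and 30.3% of those of another neutrophil. CPM are relative to all UMIs of the cells summed, and the median log2 ratio of CPM in members over other neutrophils, over all 6880 genes with at least 50 UMIs, was 0.07, 0.23 and 0.27 on the log2 scale in the 3 groups. Values given in threes, here and below, stand in the order of rising dose, the vehicle first.

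The 4 genes of the rule are described first, without support drawn from them. Bnip3, a mitochondrial protein that starts mitophagy, stood at 467, 383 and 187 CPM in members and at 23.6, 16.8 and 11.5 CPM in the other neutrophils. Hilpda, an inhibitor of the lipase ATGL that lets lipid droplets grow, stood at 596, 371 and 302 CPM against 21.7, 13.4 and 15.8. Mif, the macrophage migration inhibitory factor, stood at 855, 739 and 654 CPM against 112, 74.9 and 91.9. Slc2a1, which encodes the glucose transporter GLUT1, stood at 238, 237 and 162 CPM against 34.6, 38.7 and 39.5. All of them were lowest in the high-dose members. Mif has processed pseudogenes in the mouse genome, so its reads may have been assigned in part to copies.

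**Figure D1:**
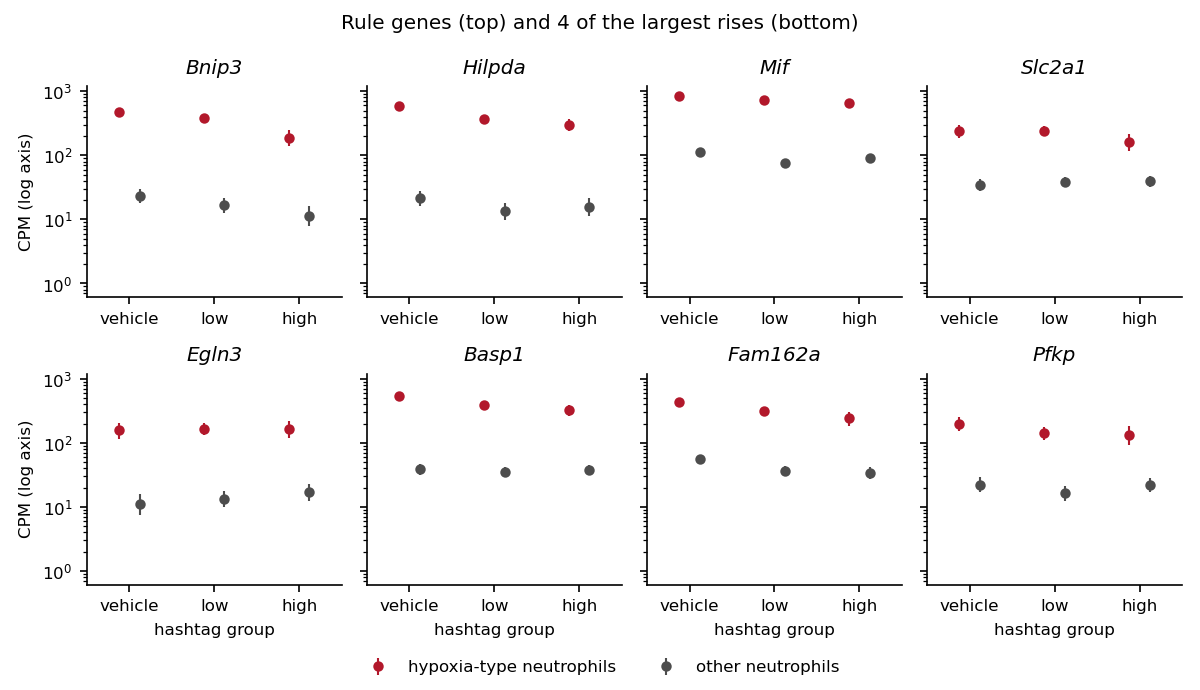
Levels of the 4 rule genes (top) and of Egln3, Basp1, Fam162a and Pfkp (bottom) in CPM on a log axis, by hashtag group, with hypoxia-type neutrophils in red and other neutrophils in grey. Points are sums over cells, bars are exact 95% intervals for counting error, and in all 8 panels the red points lie above the grey points in each group.

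The rule cut a continuous score. The member with the lowest score had 0.0638% of its UMIs from the 4 genes and the first neutrophil outside 0.0636%, while the median member had 0.130% and the highest 2.22%. Outside the members, 315 neutrophils had no UMI of the 4 genes and 535 had at least 1. A median member held 5 such UMIs, and 1 was enough in a shallow barcode. Mif was seen in 171 members (80.7%), Bnip3 in 137 (64.6%), Slc2a1 in 123 (58.0%) and Hilpda in 89 (42.0%), against 32.8%, 14.5%, 29.3% and 11.8% of the other, deeper neutrophils. Of the members, 39 held 1 of the genes, 77 held 2, 57 held 3 and 39 held all 4, and 24 were members through Mif alone. None of the genes is particular to neutrophils: in 443 barcodes with T cell transcripts (median 4689 UMIs) the shares with a UMI were 76.5% for Mif, 18.1% for Bnip3, 21% for both Slc2a1 and Hilpda.

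Each gene was also measured in neutrophils chosen by the other 3, so that its own counts played no part in the choice. Bnip3 was then 15.5-, 11.7- and 6.92-fold higher in the chosen cells, and Hilpda 20.6-, 10.0- and 12.1-fold higher. Mif was 3.38-, 4.64- and 3.76-fold higher, and Slc2a1 4.14-, 2.95- and 2.78-fold higher. The counting interval of each ratio lay above equality, and the lowest bound was 0.93 on the log2 scale, for Slc2a1 at the high dose.

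HIF binds core motifs such as ACGTG, and only this form was searched, so a promoter without it may still hold another. The sequence around it is shown for the rule genes and for those of the 15 most raised genes whose promoter holds it. It is shown since the name of these cells rests on HIF targets. Promoters were taken from RefSeq on GRCm38.p6 as 250 bases before to 50 bases after each gene start and searched for ACGTG on both strands, which reads CACGT on the other strand and CACGTG where both overlap. Capitals mark the match.
Bnip3, chr7:138909597-138909626, minus strand: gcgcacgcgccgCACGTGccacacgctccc
Hilpda, chr6:29272571-29272599, plus strand: gatggccagcggACGTGccccagggcgag
Mif, chr10:75860232-75860260, minus strand: actgagctgggtCACGTagctcaggtccc
Slc2a1, chr4:119108697-119108725, plus strand: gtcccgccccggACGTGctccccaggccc
Egln3, chr12:54204087-54204115, minus strand: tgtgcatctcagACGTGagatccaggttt
Fam162a, chr16:36071626-36071654, minus strand: ccgctcgtcgcgCACGTcccgcacgcccg
Cxcl3, chr5:90785934-90785963, plus strand: gaaccagtagcaCACGTGtgtcctctacac
Mt1, chr8:94178998-94179026, plus strand: catgatgttccaCACGTcacatgggtcgt
The match lay 108 bases before the RefSeq start of Bnip3, 36 before that of Slc2a1, 229 before that of Egln3, 81 before that of Fam162a, 155 before that of Cxcl3 and 79 before that of Mt1. By the gene limits of GENCODE, the match of Slc2a1 overlaps the gene start (chromosome 4, 119108711), and that of Mif lies before it (chromosome 10, 75860240). In Hilpda it lay 43 bases before a downstream start that RefSeq lists, inside the gene as GENCODE draws it (chromosome 6, 29272488 to 29275446), and in Mif 29 bases after the RefSeq start. The motif was found in 19.6% of all 32851 promoters. Counted by gene, it was found in 31.2% of 2801 matched genes with at least 200 UMIs, in 39.5% of 109 matched genes raised at least 2-fold in the members of all 3 groups, in 4 of 13 matched genes of the 15 largest rises, and in 18 of 20 matched genes of the HIF target list, which was drawn up from known targets. A match is a stretch of letters and says nothing of binding in these cells.

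HIF target genes outside the rule were higher in the hypoxia-type neutrophils. Of 34 listed genes 24 had at least 50 UMIs over all neutrophils, and 17 of these had intervals above 0 in all 3 groups and 0 had intervals below 0. Over all 6880 genes 4.81% were higher by the same criterion and 1.74% lower. The median log2 ratio of the list was 1.74, 1.99 and 1.85, and its summed level was 4569 CPM in members against 1688 in other neutrophils of the vehicle group, 4426 against 1796 at the low dose and 3706 against 1655 at the high dose. These are descriptions of cells selected on related genes, and the counts share barcodes with the score. Without barcodes that held at least 2 UMIs of other cell types, which left 12, 45 and 2 members, 0 of the HIF targets were higher in all 3 groups and 10 over the vehicle and low-dose groups. With the hashtag call of HTODemux, which gave 60, 128 and 7 members, 11 were higher.

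Among the sensors of the pathway, Egln3, a HIF prolyl hydroxylase that is itself a HIF target, had the largest rise of all genes under the naming rule. It stood at 157, 165 and 165 CPM in members and at 11.0, 13.4 and 16.9 CPM in other neutrophils, and had a UMI in 22 of the 64 members given the vehicle, in 43 of 129 at the low dose and in 12 of 19 at the high dose. Egln1, the main oxygen sensor of the family, stood at 48.2, 38.3 and 53.9 CPM against 10.3, 7.12 and 6.82. Hif1a, the transcript of the alpha subunit, was 1.75, 1.59 and 1.75 higher on the log2 scale. The transcripts of its partner Arnt (1.02, 1.42 and −0.20) and of Vhl (1.85, −0.06 and 0 UMIs in high-dose members) did not share one direction. In the list of pathway components 4 of 11 genes were higher in all 3 groups (Hif1a, Egln1, Egln3 and Elob) and 0 lower.

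Further HIF targets spanned several functions. Fam162a, a mitochondrial protein induced by hypoxia, stood at 431, 318 and 241 CPM in members against 55.5, 37.0 and 34.1. Higd1a, a small protein of the respiratory chain, stood at 286, 293 and 251 CPM against 81.7, 60.1 and 57.8. Ero1l, an oxidase that forms disulfide bonds in the endoplasmic reticulum, stood at 328, 176 and 176 CPM against 65.0, 40.7 and 52.8. The collagen prolyl hydroxylase subunit P4ha1 was 2.99, 3.09 and 2.46 higher on the log2 scale, and Ankrd37, a short protein with ankyrin repeats, 3.23, 3.37 and 3.96. Of the 14 Ankrd37 UMIs of the high-dose members 64.3% came from 1 barcode. Vegfa, the main growth factor of blood vessels, stood at 75.3, 74.6 and 35.9 CPM against 23.6, 12.5 and 12.2. Ndrg1 (3.04, 2.22 and 3.86) rested on few cells in the vehicle group, where 15 of its 30 UMIs came from 1 member. Outside the call were Bnip3l, the mitophagy receptor related to Bnip3 (1.25, 1.21 and 0.35), Kdm3a, Mxi1, Pgm2, Sap30, Jmjd6 and Wsb1, and of these only Sap30 had ratios below 0, in the vehicle and low-dose groups (−0.27 and −0.36).

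Genes of glycolysis were also higher in members. Of 17 genes with at least 50 UMIs 11 were higher in all 3 groups and 0 lower, beside 4.81% and 1.74% of all genes. Their median log2 ratios were 1.05, 1.09 and 0.83. Over the vehicle and low-dose groups alone 13 were higher and 0 lower, beside 10.5% and 4.45% of all genes. Without barcodes with UMIs of other cell types 1 was higher in all 3 groups and 10 over the vehicle and low-dose groups. Their summed level was 11931 CPM against 6395 in the vehicle group, 9647 against 5869 at the low dose and 10224 against 6559 at the high dose. Large ratios were those of Pfkp and Pfkl, phosphofructokinase isoforms that commit glucose to glycolysis (3.15, 3.12 and 2.58, and 2.38, 2.41 and 1.82), and of Hk2, the inducible hexokinase (2.24, 2.24 and 1.62). Tpi1, the triose phosphate isomerase, stood at 651, 655 and 614 CPM in members against 164, 132 and 149. The most abundant enzymes had smaller ratios: Gapdh 0.84, 0.59 and 0.50, Pkm 0.73, 0.62 and 0.57, Ldha, which makes lactate, 0.89, 0.81 and 0.87, and Pgk1 0.92, 0.65 and 0.83. Hk1, Hk3, Gpi1, Eno1b, Pfkfb4 and Slc2a3 were outside the call, and Hk3, the hexokinase typical of myeloid cells, had ratios of −0.27, −0.60 and 0.19. Several of these enzymes, Gapdh above all, have pseudogenes whose reads may have been shared.

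**Figure D2:**
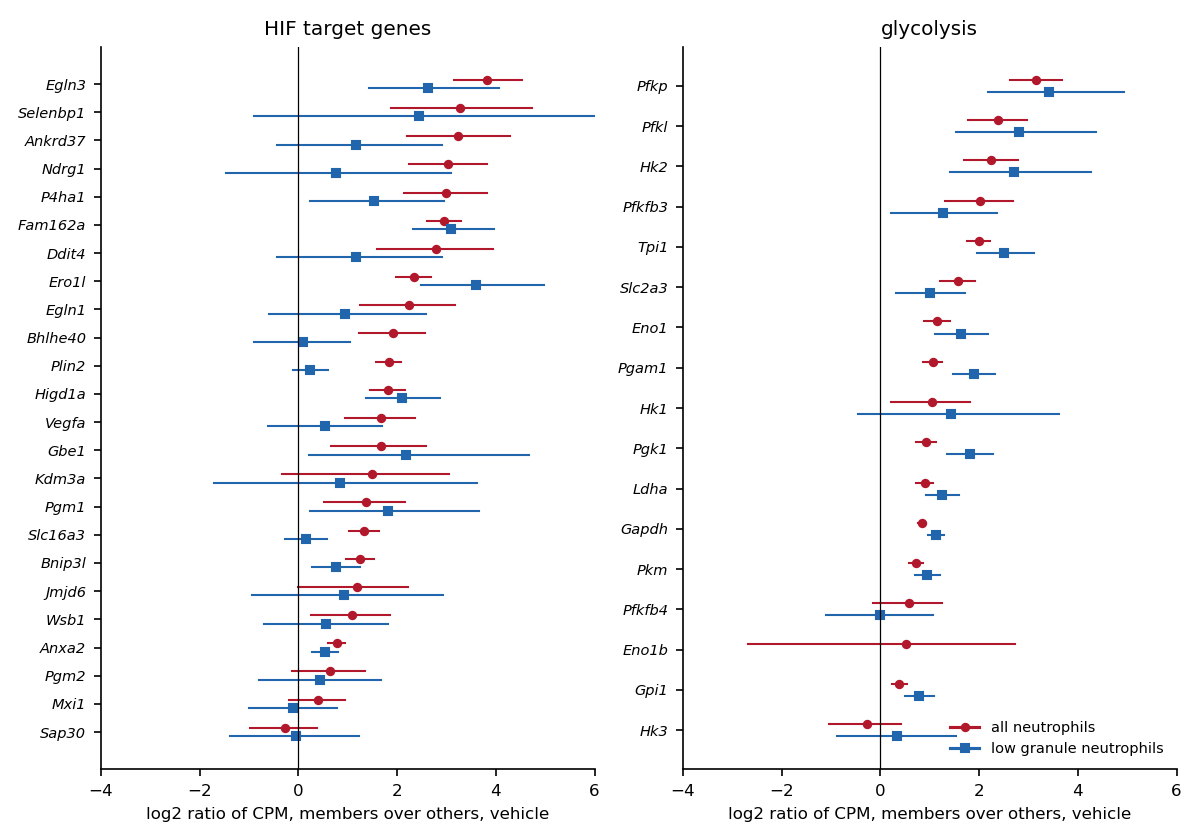
Log2 ratios of CPM in hypoxia-type over other neutrophils of the vehicle group for the HIF target genes (left) and glycolysis genes (right) with at least 50 UMIs, over all neutrophils (red circles) and over low-granule neutrophils only (blue squares). Bars are exact 95% intervals for counting error (the interval of Selenbp1 runs past the axis, and Eno1b has no blue point because it had at most 3 UMIs on each side). Among low-granule cells Pfkp, Pfkl, Hk2, Tpi1 and Ero1l keep ratios above 2, while those of Plin2 and Bhlhe40 lie near 0.

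Mitochondrial and lipid genes moved less uniformly, where 4.81% of all genes were higher and 1.74% lower in all 3 groups. Of 39 nuclear genes of oxidative phosphorylation 0 were higher in all 3 groups and 2 were lower, Ndufa1 and Ndufb7, both of complex I. Over the vehicle and low-dose groups alone 14 were lower and 0 higher, where 10.5% of all genes were higher and 4.45% lower. Among low-granule cells of these groups, compared further on, 2 of the 39 were higher and 0 lower. Of 13 genes of the mitochondrial genome 5 were higher and 0 lower in all 3 groups, and 0 were higher or lower among low-granule cells of the vehicle and low-dose groups. In the mitophagy and autophagy list 1 of 10 genes was higher, Map1lc3b, which tags autophagosomes (1.26, 1.24 and 0.31), and at the high dose its interval only just cleared 0. Among 12 genes of lipid droplets and lipolysis 4 were higher (Plin2, Pnpla2, G0s2 and Fabp5) and 1 was lower. Plin2, the coat protein of lipid droplets, stood at 554, 360 and 356 CPM against 156, 139 and 110, and G0s2, which like Hilpda inhibits ATGL, at 4319, 3881 and 1436 CPM against 1332, 1825 and 913. Abhd5, the activator of ATGL, was the one that was lower (−1.24, −1.57 and −0.94). Fabp5 in the high-dose members came to 80.7% from 1 barcode. Among low-granule cells of the vehicle and low-dose groups 1 of the 12 lipid genes was higher and 0 lower. In the mitophagy and autophagy list it was 1 of 10 higher and 0 lower there, beside 1.57% and 0.465% of all genes. Of 6 receptors and relatives of Mif only Cd44 was higher in all 3 groups (0.81, 0.89 and 0.62).

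The naming rule took the 15 genes with the largest ratios in the group where each was smallest, among 3482 genes with at least 200 UMIs. Only the 4 rule genes were left out, so genes of the HIF target and glycolysis lists, as Egln3, Fam162a and Pfkp, are among the 15. Of these 3482 genes 132 were at least 2-fold higher in all 3 groups, which is 3.79%, and 56 at least 2-fold lower, which is 1.61%. These counts ranged from 25 to 281 and from 0 to 155 over other settings, with 25 and 0 over low-granule neutrophils and 4 lower within classes of depth. Basp1, a membrane protein that binds calmodulin, was second to Egln3, at 542, 394 and 323 CPM against 39.1, 35.6 and 38.1. Cdkn1a, the cell cycle inhibitor p21, stood at 244, 243 and 151 CPM against 28.9, 25.9 and 28.0. Bcl2l1, which encodes the survival protein BCL-XL, stood at 96.4, 115 and 86.2 CPM against 17.9, 20.8 and 16.5. The remaining named rises were Fam162a, Pfkp, the interleukin-1 antagonist Il1rn, the acute phase gene Saa1, the chemokines Ccl3 and Cxcl3, the metallothionein Mt1, Ninj1, the inducible nitric oxide synthase Nos2, Rgcc and Tmem189. Of these, Saa1, Ccl3, Cxcl3 and Mt1 rested on single barcodes in the high-dose group, where 1 member held 98.1%, 59.3%, 62.8% and 55.6% of the UMIs. Saa1 has a near-identical neighbor, Saa2, so its reads may have been shared.

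The 10 named falls were of 2 kinds. Hemoglobin transcripts were lower: Hbb-bs stood at 9.04, 32.5 and 10.8 CPM in members against 127, 723 and 217 in other neutrophils, and Hba-a1 and Hba-a2, near-identical copies of each other, were at 3.01, 7.65 and 0 and at 0, 7.65 and 7.18 CPM, against 29.3 to 217 CPM and 32.3 to 164 CPM. The whole erythroid list of 6 genes summed to 18.1, 47.8 and 18.0 CPM in members against 195, 1169 and 343, with Hbb-bs the most abundant and Alas2 at 0 in the members of every group. The part of red cell RNA in other differences was not tested. Genes of mitosis made up the rest: Nusap1, a spindle protein, was lower by 2.48, 3.12 and 3.47 on the log2 scale, and Aurka, Aurkb, Ccna2, Tpx2, Racgap1 and Prc1 were at 1.91 to 15.1 CPM in members against 15.9 to 65.4. With members taken within 10 classes of UMIs per barcode, the mean log2 ratios of Aurkb and Racgap1 were 0.072 and 0.006, so their direction was lost. Among low-granule cells of the vehicle group, compared further on, Nusap1 and Aurkb had 0 UMIs in members and 0 in others. Ccna2 had 2 and 0 UMIs there and Tpx2 3 and 0, so these counts give no fold. The part of the stage in the falls was not tested.

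Members and other neutrophils differed in maturation stage. Neutrophils pass from progenitors that make the primary granule proteases (Elane, Mpo, Prtn3, Ctsg) through a stage that makes secondary granule proteins (Camp, Ngp, Ltf) to mature cells that have stopped making both. In 159 of 212 members (75.0%) under 0.1% of UMIs came from Camp, Ngp and Ltf, here called low-granule, against 271 of 850 other neutrophils (31.9%), and 15 members (7.08%) and 400 others (47.1%) had at least 1%. Of 12 genes of immature granules 10 were lower in members of all 3 groups and 0 higher, beside 1.74% and 4.81% of all genes. Among them were Camp (−2.90, −4.49 and −1.60), Ngp (−1.96, −2.98 and −1.15) and Ltf (−2.84, −3.01 and −1.08). The exceptions were Mmp8 and Itgb2l. Of 15 genes of mature neutrophils 6 were higher in all 3 groups and 15 in the vehicle and low-dose groups, beside 4.81% and 10.5% of all genes. The granulocyte colony-stimulating factor receptor Csf3r stood at 702, 968 and 284 CPM against 273, 370 and 260. Among low-granule cells of the vehicle and low-dose groups 1 of the 15 mature genes was higher and 3 were lower, beside 1.57% and 0.465% of all genes. Progenitor-type cells, with at least 0.5% of UMIs from the 4 proteases, were 4 of the members (1.89%) and 82 of the others (9.65%), and 1 barcode held 54.5% of the Elane UMIs of the vehicle members.

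Members were also compared with other low-granule neutrophils of the vehicle and low-dose groups, a comparison added after seeing the data. The threshold on Camp, Ngp and Ltf does not remove progenitors, whose genes summed to 3552 CPM in these members against 164 in the others of the vehicle group, and to 142 against 169 at the low dose. It rests on 52 and 101 members and 72 and 175 others, with median depths of 2978 and 2842 UMIs against 3474 and 3580, while the high dose left only 6 members and was not used. Here 1.57% of the 6880 genes were higher in both groups and 0.465% lower. Of the glycolysis genes 13 of 17 were higher and 0 lower, at 10965 CPM against 4576 and 9385 against 4703, and among enzymes with larger ratios than over all neutrophils were Pgk1 (1.81 and 1.38), Pgam1 (1.89 and 1.77) and Ldha (1.25 and 1.05). Of the HIF targets 8 of 24 were higher and 0 lower, at 4524 CPM against 2554 and 4651 against 2532: Egln3 (2.63 and 2.64), Fam162a (3.10 and 3.05), Ero1l (3.61 and 3.51), Higd1a (2.09 and 2.29), P4ha1, Bnip3l, Pgm1 and Gbe1. Plin2 (0.24 and 0.39) and Slc16a3, the lactate exporter (0.15 and 0.61), were among those outside the call there. Rgcc had 2 and 6 UMIs in these other cells. None of 17 genes of adhesion and migration was higher or lower in both groups, against 10 higher over all neutrophils of the same 2 groups.

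For inflammatory genes the counts also depended on the cells compared. Over all neutrophils 13 of 19 inflammatory genes, 12 of 15 immediate early genes and 11 of 16 genes of suppression and angiogenesis were higher in members of all 3 groups, and 0 of each lower, beside 4.81% of all genes higher. Over the vehicle and low-dose groups alone the counts were 16, 13 and 12, beside 10.5%. Il1b, the cytokine interleukin-1 beta, stood at 3021, 5094 and 664 CPM against 480, 1756 and 268, and Cxcl2, a chemokine that draws neutrophils, at 8844, 8479 and 2413 CPM against 1836, 3133 and 834. Among low-granule cells of the vehicle and low-dose groups 4 of 19 inflammatory genes were higher (Il1rn, Cxcl3, Csf1 and Ccrl2) and 1, Osm, was lower, beside 1.57% and 0.465% of all genes, and Il1b (0.43 and −0.10) and Cxcl2 (0.65 and −0.01) were outside the call. Of the immediate early genes 3 of 15 were higher there and 0 lower. Of the genes of suppression and angiogenesis 6 of 16 were higher and 1 lower. Cd274, which encodes the checkpoint ligand PD-L1, was higher in both settings, at 87.4, 68.9 and 68.2 CPM against 6.46, 4.55 and 7.90 over all neutrophils and with log2 ratios of 1.12 and 2.80 among low-granule cells. Nos2 (0.96 and 2.23), Hmox1 (1.10 and 0.63), Hcar2, Cstb and Tnfrsf23 made up the other low-granule rises, and Wfdc17, a small secreted protein abundant in these cells, was lower there (−0.88 and −0.36).

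Levels also varied with the score inside the members, which were split at the median score into 106 with lower and 106 with higher values. The HIF target list, without the rule genes, summed to 1795 CPM in the 315 neutrophils with no rule gene UMI, 1692 in the 535 others outside, 3125 in the lower and 5805 in the upper members. Glycolysis summed to 5655, 6457, 7734 and 13993 CPM in the same order. Inflammatory genes stood at 6097, 4024, 13128 and 17573 CPM, and interferon-stimulated genes at 219, 205, 495 and 1028 CPM. The share of low-granule cells was about equal in the 2 member sets, 73.6% and 76.4%, against 38.1% and 28.2% outside. The 4 sets differ in depth (medians of 5948, 10603, 3705 and 2998 UMIs), and its part in the order was not tested.

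**Figure D3:**
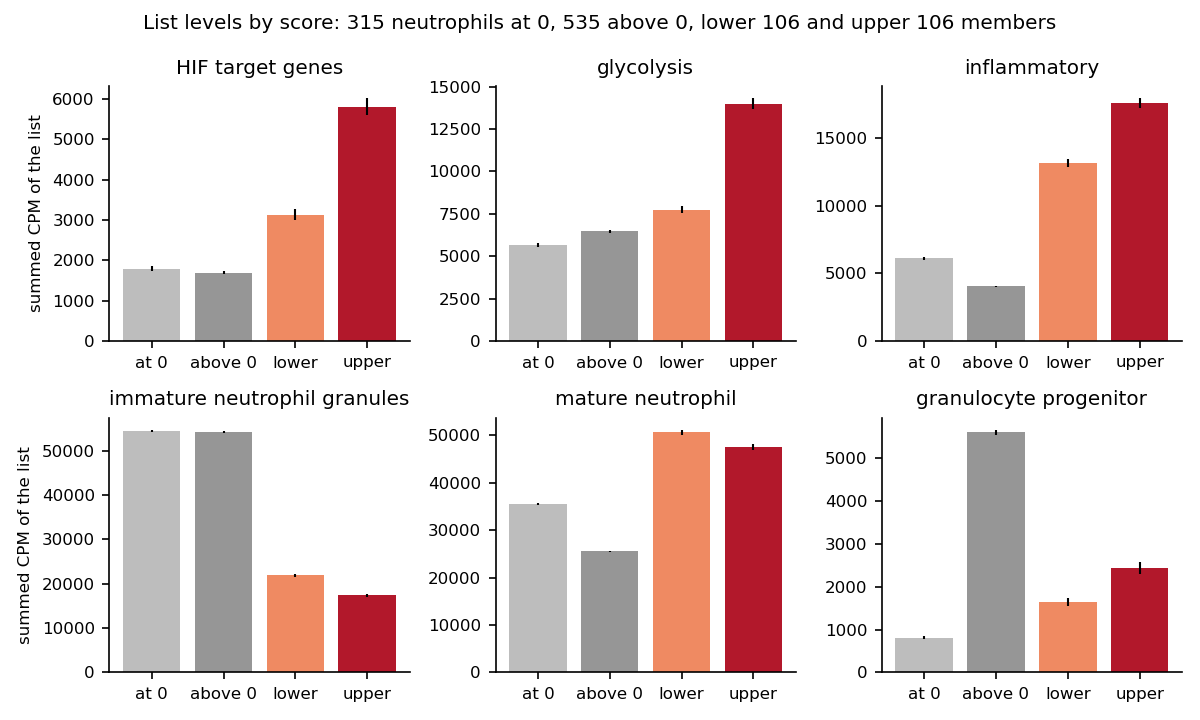
Summed CPM of 6 gene lists in the 315 neutrophils without a rule gene UMI, the 535 with one but outside the members, and the 106 members with lower and 106 with higher scores. Bars start at 0 with exact 95% intervals for counting error, and HIF target genes and glycolysis are highest in the upper members (5805 and 13993 CPM), whereas immature granule genes are lowest there (17346 CPM).

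Levels by the rule genes that a member held are given as a description only, since these UMIs also chose the members. The 89 members with a Hilpda UMI held 4936 CPM of HIF targets (4767 to 5110) and 11586 CPM of glycolysis genes, and the 123 without held 3424 CPM (3261 to 3593) and 8941 CPM, with median depths of 4322 and 2967 UMIs. Progenitor genes summed to 937 CPM in the former and 3389 in the latter. The 24 members with Mif alone held 3120 CPM of HIF targets (2692 to 3596) and 5763 CPM of glycolysis genes (5176 to 6399), the latter below the 6239 CPM of the other neutrophils, and 25827 CPM of inflammatory genes. Camp had 0 UMIs in these 24 cells. In low-granule neutrophils outside the members, the corresponding levels were 2577 CPM of HIF targets, 4987 CPM of glycolysis and 18545 CPM of inflammatory genes.

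The share of neutrophils that were hypoxia-type was lower at the high dose. It was 64 of 296 (21.6%, interval 17.1 to 26.8) for the vehicle, 129 of 554 (23.3%, 19.8 to 27.0) for the low dose and 19 of 212 (8.96%, 5.48 to 13.6) for the high dose. The difference from the vehicle was 1.66 points (−6.93 to 9.96) at the low dose and −12.7 points (−21.3 to −3.43) at the high dose. With members taken within 10 classes of UMIs per barcode the differences were −10.4 and −7.35 points, so the low-dose difference changed sign and the high-dose one was smaller, and the median depth of other neutrophils was 9581.5, 5982 and 13723 UMIs. Neutrophils themselves were 36.1%, 42.0% and 9.04% of the 820, 1318 and 2345 barcodes with a group, and low-granule cells 41.9%, 49.8% and 14.2% of the neutrophils. Of low-granule neutrophils 52 of 124 (41.9%), 101 of 276 (36.6%) and 6 of 30 (20.0%, 7.71 to 38.6) were members, a difference from the vehicle of −21.9 points at the high dose with limits of −43.4 and 5.43. Members are 20% of all neutrophils by construction, so only the split over groups carries information, and with 1 pool a group the dose, the mice and the staining cannot be told apart.

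**Figure D4:**
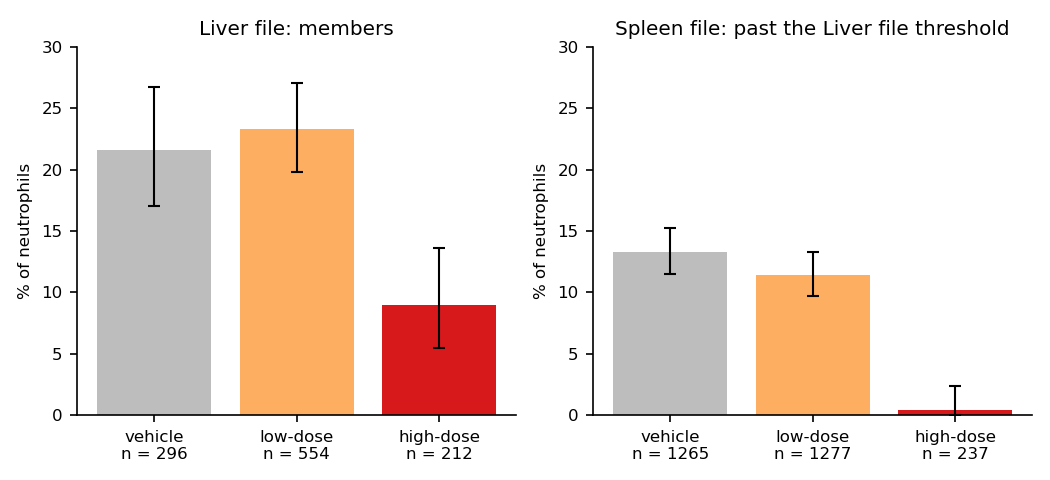
Percent of neutrophils in each hashtag group that were hypoxia-type in the Liver file (left) and that passed the same score in the Spleen file (right). Bars start at 0 with exact binomial 95% intervals, n is the number of neutrophils, and the high-dose group is lowest in both, at 8.96% and 0.422%.

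Within the hypoxia-type neutrophils, most inflammatory and immediate early genes were lower at the high dose than in the vehicle group. The list sums took the same order over dose in the other neutrophils. Inflammatory genes summed to 16157, 19691 and 5071 CPM in members and 3738, 7138 and 2176 CPM in others. Immediate early genes summed to 10000, 13577 and 3983 CPM in members and 3654, 5040 and 2093 CPM in others. The mix of stages differed as well: 52 of 64 vehicle members, 101 of 129 at the low dose and 6 of 19 at the high dose were low-granule. At the high dose 12 of 15 mature neutrophil genes were below the vehicle and 2 above (54161, 58392 and 26136 CPM in sum over the groups), and of 10 immature granule genes 6 were above and 1 below (18085, 17670 and 26351 CPM). The part of the stage in the differences between doses was not tested. Among 2189 genes with at least 50 UMIs over members, the low dose was above the vehicle for 14.5% and below for 12.4% by their intervals, and the high dose above for 18.6% and below for 14%. Of 20 HIF targets 1 was above and 4 were below the vehicle at each dose, and of 16 glycolysis genes 0 were above and 4 below at the low dose, and 1 above and 4 below at the high dose. Egln3 (157, 165 and 165 CPM) and Ldha (1130, 1068 and 1203 CPM) were close to each other over the groups. The rule genes had high-dose log2 ratios of −1.32 (Bnip3), −0.98 (Hilpda), −0.39 (Mif) and −0.56 (Slc2a1). Their counts chose the members, so these values are a description only. Of 16 inflammatory genes 12 were above and 1 below the vehicle at the low dose, and 0 above and 11 below at the high dose, and of 12 immediate early genes 10 were above at the low dose and 10 below at the high dose. Of 7 interferon-stimulated genes 2 and 5 were below the vehicle and 0 above.

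Among genes with at least 200 UMIs over members, the 5 largest high-dose falls with one direction at both doses were those of Elane, Cxcl2, Mirt2, a long noncoding RNA, G0s2 and Clec4d, a C-type lectin. The low-dose intervals of Cxcl2, Mirt2 and Clec4d included 0, so their shared direction is that of the ratio alone. Ccrl2, with log2 ratios of 0.26 at the low and −2.89 at the high dose, was left out by its low-dose sign. Cxcl2 stood at 8844, 8479 and 2413 CPM (log2 ratio −1.87 at the high dose, −2.0 to −1.75), and low-granule neutrophils outside the members had ratios of 0.33 at the low and −1.15 at the high dose. Clec4d stood at 250, 249 and 93.4 CPM. Il1b was above the vehicle at the low dose and below it at the high dose, at 3021, 5094 and 664 CPM, and low-granule neutrophils outside the members had log2 ratios of 1.24 and −1.12 in the same order. Elane, at 1729, 7.65 and 237 CPM, rested on few cells, 4 of the 64 vehicle members having any UMI.

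High-dose members carried transcripts of other cell types. By the same rule the 5 largest high-dose rises were Pf4, C1qa, Saa2, Fn1 and Saa1, and 1 barcode held 93.8% of the Pf4, 97.8% of the Saa2, 95.0% of the Fn1 and 98.1% of the Saa1 UMIs. Macrophage and Kupffer markers summed to 69.3, 230 and 2122 CPM in members against 82.5, 142 and 335 in other neutrophils, 9, 9 and 7 of 10 had a UMI, and C1qa was the most abundant at the high dose, where the Kupffer markers Clec4f, Vsig4 and Marco were at 0. Hepatocyte markers summed to 470, 484 and 1893 CPM against 165, 191 and 242 (6, 9 and 10 of 10 with a UMI), and Trf, transferrin, was the most abundant in every group, with 67.0% of the list's high-dose UMIs in 1 barcode. Trf was one of 2 hepatocyte markers higher in members of all 3 groups, at 428, 360 and 797 CPM against 148, 138 and 186. It held 142 of the list's 156 UMIs in vehicle members, 188 of 253 at the low dose and 222 of 527 at the high dose. In the Spleen file, where Alb had 0 UMIs, this list summed to 304, 182 and 201 CPM in cells chosen by the same rule. The other neutrophils there stood at 127, 102.5 and 146 CPM. Trf counted in the filter on UMIs of other cell types, and its source was not tested. Platelet markers summed to 6.02, 32.5 and 1465 CPM against 14.4, 3.13 and 25.9, with 2, 2 and 3 of 5 seen and Gp1bb at 0 throughout.

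Most of the other marker lists were also highest in the high-dose members. Monocyte markers summed to 362, 408 and 1343 CPM in members against 217, 200 and 224 in other neutrophils (6, 6 and 7 of 7 with a UMI), led by Ctss, Fn1 and Ctss, and Cx3cr1 was at 0 for the vehicle and low dose. Dendritic cell markers summed to 12.1, 28.7 and 546 CPM against 74.1, 56.6 and 119 (1, 4 and 5 of 9), led at the high dose by H2-Aa, with Flt3, Xcr1, Clec9a and Siglech at 0 in every group. T and NK cell markers summed to 57.2, 21.1 and 316 CPM against 140, 113 and 94.1 (3, 3 and 7 of 10), led by Trbc2 at the high dose, where 63.6% of UMIs came from 1 barcode, with Cd4, Ncr1 and Klrb1c at 0 in every group. B cell markers stood at 21.1, 7.65 and 89.8 CPM against 14.8, 7.68 and 4.31 (3, 3 and 6 of 8), led by Ighm at the high dose, where 24 of 25 UMIs came from 1 barcode, and Pax5 was at 0 throughout. Endothelial markers summed to 21.1, 40.2 and 93.4 CPM against 15.2, 9.11 and 16.5 (5, 7 and 8 of 8), led by Clec4g at the high dose. Markers of 4T1 tumor cells summed to 90.4, 117 and 395 CPM against 65.7, 101 and 72.2 (3, 5 and 6 of 10). The most abundant at the high dose was Krt18, 74.5% of the list's UMIs came from 1 barcode, and Epcam was at 0 in every group. Basophil and mast cell markers had at most 2 UMIs. Doublets within a hashtag were kept, and the part of these transcripts in the differences between doses was not tested. Over the vehicle and low-dose groups alone 19 of 24 HIF targets were higher, beside 10.5% of all genes. Without barcodes with UMIs of other cell types that count was 10.

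The same rule was applied to the Spleen file. Of its 9591 barcodes 2779 were neutrophils with a group, and its own top 20% were 556 cells, 279 of 1265, 266 of 1277 and 11 of 237 (22.1%, 20.8% and 4.64%). By the score threshold of the Liver file, 168 vehicle (13.3%, 11.5 to 15.3), 146 low-dose (11.4%, 9.74 to 13.3) and 1 high-dose neutrophil (0.422%, 0.0107 to 2.33) passed, 11.3% of all. Hilpda was nearly missing, with a UMI in 13 of the 556 top cells (2.34%) and 5.75 CPM in those of the vehicle group against 1.26 CPM in the rest, while Mif was seen in 77.7%, Bnip3 in 54.7% and Slc2a1 in 45.1%. Outside neutrophils, Hilpda stood at 84.7 CPM in the Liver file and 14.7 CPM in the Spleen file.

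HIF targets stood closer together in the 2 sets of cells of the Spleen file, at 2479 CPM in the top cells against 1674 in the vehicle group, 2375 against 1731 at the low dose and 1479 against 1697 at the high dose. In all 3 groups 2 of 27 were higher and 0 lower, beside 9.8% of 9169 genes higher and 1.09% lower, and this count rests on the 11 high-dose cells. Over the vehicle and low-dose groups alone 17 of 27 were higher and 1 was lower, beside 31.8% of all genes higher and 3.28% lower. Among low-granule cells of these groups 10 were higher and 0 lower, beside 4.17% and 0.774%. Egln3 had ratios of 1.82, 2.15 and 0.76. Of glycolysis genes 3 of 18 were higher and 1 lower in all 3 groups, 9 higher and 1 lower over the vehicle and low-dose groups, and 8 higher and 0 lower among their low-granule cells. Of the nuclear genes of oxidative phosphorylation 23 of 39 were higher and 0 lower in all 3 groups, but 2 of 39 among low-granule cells of the vehicle and low-dose groups. The largest rises were Elane, Mpo, Clec4n, Mrps28, Ctsg, Rexo2, Cst7 and Agpat5, 3 of them primary granule proteins, and Elane stood at 1628, 2216 and 1471 CPM against 279, 243 and 261. Of the top cells 91.6% were low-granule and 28 (5.04%) progenitor-type. Leaving Bnip3 out of the score, its level in the cells chosen was 6.28-, 3.99- and 1.49-fold that in the rest. Left out in the same way, Slc2a1 was at 2.31-, 1.62- and 0.504-fold and Mif at 3.63-, 2.89- and 1.57-fold. Hilpda was at 3.077-fold for the vehicle and 3.497-fold for the low dose, where its interval included equality, on 6 and 5 UMIs. High-dose cells chosen held 5 UMIs of Bnip3, 6 of Slc2a1, 12 of Mif and 0 of Hilpda. Each of these high-dose intervals included equality. In the Spleen file 3.36% of 6467 genes were at least 2-fold higher in all 3 groups. Of 3465 genes with at least 200 UMIs in both libraries, 128 were at least 2-fold higher in the Liver file and 85 in the Spleen file, and 13 in both, which is 10.2% of the former and 15.3% of the latter. The difference between the libraries was not tested, since tissue and library cannot be told apart.

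**Figure D5:**
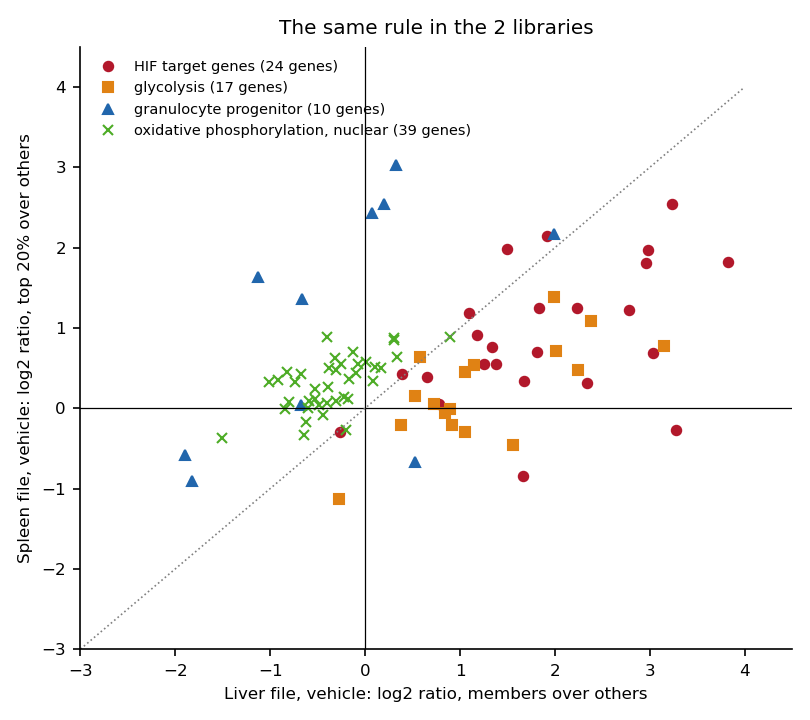
Log2 ratios of CPM, cells chosen by the rule over other neutrophils, in the vehicle group of the Liver file (x axis) and of the Spleen file (y axis), for HIF target, glycolysis, granulocyte progenitor and nuclear oxidative phosphorylation genes, with the diagonal dotted. Most HIF target and glycolysis genes lie to the right of and below the diagonal, as Egln3 (3.83 in the Liver file), whereas most progenitor genes lie above it, as Elane (0.20 and 2.55).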

How the data were processed

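The values deposited by the authors were whole UMI counts for each gene and hashtag in each barcode of 2 droplet libraries with 3 hashtag groups, filtered to cells and made with Cell Ranger (5.0.0 per the file headers, 6.0.0 per the submitters' processing notes and 8.0 per the study's methods) on mm10, with neither normalization nor cell type labels. Counts were summed over the cells of a set and group and scaled to 1000000 UMIs (CPM). Ratios carry exact conditional binomial, shares Clopper-Pearson and sums exact Poisson intervals at 95%, the difference of shares has limits from both exact intervals, and all cover counting error only. A count of 0 was given a limit of 3 counts. The library totals were 35672251 and 79585807 UMIs, at medians of 3368.5 and 4673 per barcode.

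A list gene was called where its interval lay on one side of 0 in all 3 groups, with at least 50 UMIs over the neutrophils. Named genes were the 4 rule genes, the 15 largest rises and 10 largest falls by the smallest ratio over the groups among genes of one sign with at least 200 UMIs, the 5 largest rises and falls of the high dose within members with the same sign at the low dose, and examples from the lists. The members, the lists and the rule were chosen with earlier results of these data known. Barcodes without 1 dominant hashtag were dropped by the rule, and doublets within a hashtag were kept. Doublets between hashtags may remain where 1 hashtag had at least 3 times the next. Chosen anew with HTODemux singlets, members numbered 60, 128 and 7. With at least 20 hashtag UMIs and 5 times the next they numbered 62, 129 and 14. The ratio and its interval were tested on simulated data. Gene positions came from GENCODE release 21. Alternatives changed the hashtag call (HTODemux of Seurat 5.3.0 in R 4.3.3 among them), the neutrophil and score thresholds, the genes of the score, the scaling and the filters. Python 3.11.15, numpy 2.4.6, scipy 1.17.1, pandas 2.3.3 and matplotlib 3.10.9 were used. Clustering was not used here, and a few genes of the lists are not reported here.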

Additional observations from a re-analysis of the deposited data

Results flagged for a closer look

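Cells chosen by the rule were compared with the other neutrophils in each library. Of the genes on the lists, 3 had intervals on one side of 0 in all 3 groups of the Liver file. In all 3 groups of the Spleen file their intervals lay on the other side. Genes opposite in the vehicle groups alone were not counted. The 3 genes, with their vehicle log2 ratios, were the primary granule gene Prtn3 (−0.66 in the Liver file and 1.36 in the Spleen file), Ms4a3, a gene of granulocyte progenitors (−1.13 and 1.64), and the integrin Itgam (0.34 and −0.49). None of these differences was tested.

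A further 11 genes had intervals on opposite sides of 0 in different dose groups of the Liver file, again untested. Markers of mature neutrophils were higher in vehicle and low-dose members and lower in high-dose members, namely Retnlg (1.32, 0.85 and −0.10), Ifitm1 (0.89, 0.89 and −0.11) and Ifitm2 (0.39, 0.44 and −0.28). So were Mmp8, a gene of the immature granule list (1.39, 1.03 and −0.34), and the formyl peptide receptor Fpr1 (0.66, 0.43 and −1.36). The reverse order held for the chaperone Hspa8 (−0.30, −0.45 and 0.50) and the antigen presentation genes Cd74 (−1.16, −2.97 and 2.68) and H2-Eb1 (−1.36, −3.40 and 1.64), and 55.9% of the Cd74 UMIs of the high-dose members came from 1 barcode. Vehicle and low dose differed for the glycolytic isomerase Gpi1 (0.38 and −0.22) and for the proteases Elane (0.20 and −6.78) and Ctsg (0.32 and −7.02).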

How the results depend on the processing

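The share of members among neutrophils was lower at the high dose than in the vehicle group under all 16 settings that give it, with differences between −21.9 and −7.35 points, the former over low-granule neutrophils only. The low-dose difference of 1.66 points ranged from −10.4 to 8.40, the highest without barcodes with UMIs of other cell types and the lowest when the top 20% were taken within each of 10 classes of UMIs per barcode. The count of HIF targets higher in all 3 groups (17) was 11 with HTODemux singlets, 11 with neutrophils defined at 20%, 5 over low-granule neutrophils, 8 there without the high-dose group, 0 without barcodes that held at least 2 UMIs of other cell types (12, 45 and 2 members chosen anew among 296 neutrophils), and 10 there without the high-dose group. The glycolysis count (11) was 6 over low-granule neutrophils and 1 without the barcodes with UMIs of other cell types. Settings over low-granule cells or without the high-dose group were chosen after seeing the data.

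The count of genes at least 2-fold higher (132) was 68 with members taken within each hashtag group, 81 without Bnip3 in the score, 73 with CPM computed without the 20 most abundant genes, 83 with a mean over cells, 281 for genes with at least 50 and 29 with at least 1000 UMIs. It was 263 without the high-dose group, 42 without barcodes with UMIs of other cell types, 277 under both, 25 over low-granule neutrophils and 65 there without the high-dose group. The count of genes at least 2-fold lower (56) was 19 and 26 with neutrophils at 5% and 20%, 3 for the top 30%, 6 within each hashtag group, 4 within classes of depth and 27 with members chosen and measured on separate UMIs. It was 18, 26, 155 and 13 without Bnip3, Hilpda, Mif and Slc2a1 in the score, 97 without the 20 most abundant genes, 85 with a mean over cells, 19 at 1000 UMIs, 5 without barcodes with UMIs of other cell types, 135 without the high-dose group, 0 over low-granule neutrophils and 26 there without the high-dose group. The share of Spleen file neutrophils past the threshold (11.3%) was 2.88% for the top 10%, 19.1% for the top 30%, 9.79% without Bnip3, 13.6% without Hilpda and 22.0% over low-granule neutrophils. In all, 94 of 137 such shares and counts stayed within their interval or within 1.5 times. The causes were not tested.

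Of 608 mean log2 ratios of the 29 named genes under other settings 336 lay within the range of the 3 groups as reported, 270 lay outside it with the same direction and 2 changed direction, those of Aurkb (0.072) and Racgap1 (0.006) with members taken within classes of depth. A mean over cells gave no intervals for the list counts, and selection within these classes gave no single threshold for the Spleen file. No paired analysis was possible because the 3 pools had different doses and members were split from the other neutrophils of a pool on their own counts, so their contrast is a description in each pool. The number of high-dose members, 19, and the median of 5 rule gene UMIs per member limit the precision.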

Other observations

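Interferon-stimulated genes were also higher in members, although not in every group. Of 10 genes with at least 50 UMIs 2 were higher in all 3 groups, Isg15 (2.23, 2.08 and 1.39) and Ifi47 (2.07, 2.82 and 1.10), and 9 in the vehicle and low-dose groups, beside 4.81% and 10.5% of all genes. The guanylate-binding protein gene Gbp2 stood at 166, 105 and 32.3 CPM in members against 23.9, 21.9 and 21.5. Among low-granule cells of the vehicle and low-dose groups 2 of the 10 were higher, Ifi47 and Gbp2, beside 1.57% of all genes.

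Stress and survival genes were mixed, where 4.81% of all genes were higher and 1.74% lower in all 3 groups. Of 10 genes of the integrated stress response 4 were higher in all 3 groups (Atf3, Ppp1r15a, Xbp1 and Hspa5) and 1 was lower, Asns, the asparagine synthetase (−0.94, −1.87 and −1.87). Of 5 heat shock genes 0 were higher or lower. Of 14 genes of cell death and survival 2 were higher, Bcl2l1 and Mcl1 (1.26, 1.14 and 0.71), both of which oppose apoptosis. Among low-granule cells of the vehicle and low-dose groups 0 of these 14 were higher or lower. Of the 10 stress response genes 1 was higher there and 0 lower, beside 1.57% and 0.465% of all genes.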
